A study of Mus musculus with 12 samples.

Results

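The genes of the VEGF ligands and of their receptors were taken from a table of normalized RNA signal as the rows whose gene symbol is Vegfa, Vegfb, Vegfc, Figf, Pgf, Flt1, Kdr, Flt4, Nrp1 or Nrp2, and all 10 were found among 22711 genes. RNA had been sequenced from mice of the strain RIP-rtTA; TetO-VEGF-A, in which the rat insulin promoter (RIP) drives the transactivator rtTA in beta cells and doxycycline (Dox) then switches on a VEGF-A transgene. The 12 libraries form 4 groups of 3. One group is whole islets of mice given no Dox and the other 3 come from mice given Dox for 1 week: whole islets, and CD11b+ macrophages and CD31+ endothelial cells sorted out of islets. Every group carries both transgenes. Islets of mice that lack them, and sorted cells without Dox, are not analysed here, so an action of Dox itself and one of the transgene cannot be told apart. The labels give no ages and do not say if each library is from its own animals. The p-values therefore measure only the spread between these samples, which may be technical.

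VEGF ligands are secreted dimers that bind receptor tyrosine kinases on endothelial cells. VEGF-A acts mainly through KDR (VEGF receptor 2), while FLT1 (VEGF receptor 1) binds VEGF-A, VEGF-B and PlGF, the product of Pgf, and exists in a membrane-bound and a soluble form that holds ligand back. VEGF-C and VEGF-D, the product of Figf, bind FLT4 (VEGF receptor 3), and neuropilins 1 and 2 are coreceptors that also bind semaphorins. In pancreatic islets, beta cells make VEGF-A, and the dense fenestrated capillaries that run through the islet depend on it.

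The receptor genes were highest in the endothelial fraction, while the ligand genes differed in where they were highest. Flt1, Kdr, Flt4, Nrp1 and Nrp2 were all highest in sorted endothelial cells and next in Dox islets. In islets, 4 of these 5 passed the test for a rise after Dox, as did 6.22% of all genes tested. Without Dox replicate 2, and again without Dox replicate 3, no receptor gene passed. Vegfa was highest in No Dox islets, Vegfc in endothelial cells and Vegfb in macrophages, overlapping No Dox islets there. Nrp1 and Nrp2 were also at substantial levels in macrophages, where the other 3 receptor genes were near the bottom of their range.

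**Figure D1:**
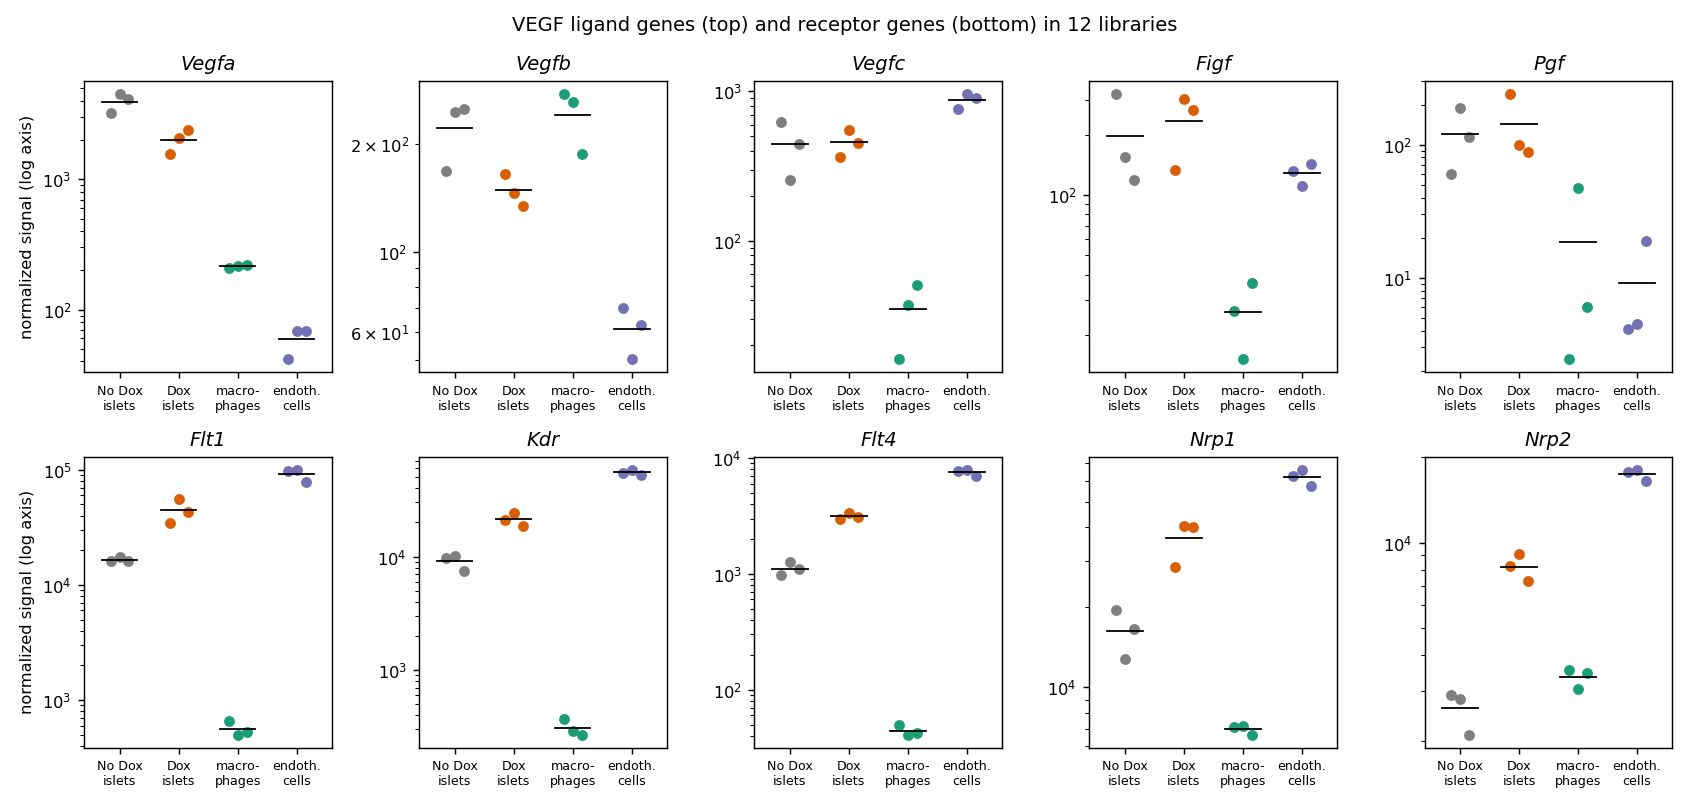
Normalized signal (vertical log axis) of the 5 VEGF ligand genes (top) and the 5 receptor genes (bottom) in the 4 groups. Each point is 1 library and each line the mean of 3; every receptor gene is highest in the 3 endothelial libraries, while Vegfa is highest in the 3 No Dox islet libraries.

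The values are the authors' normalized signal, a linear unit with a floor of 1, and their sum per library ran from 17626506 to 25218786. Of that sum the 10 genes made up 0.212 to 0.282% in No Dox islets, 0.484 to 0.538% in Dox islets, 0.0493 to 0.0555% in macrophages and 0.937 to 1.07% in endothelial cells. Both sorts carried their defining genes: 16 endothelial markers held 1.15 to 1.26% of the signal in the endothelial fraction and 0.00950 to 0.0131% in macrophages, and 11 macrophage markers held 1.77 to 1.81% in macrophages and 0.0127 to 0.0178% in endothelial cells. A pair of islet libraries stood apart by base composition. Across genes, the deviation of No Dox replicate 2 and Dox replicate 1 from their group means had Spearman correlations of 0.65 and 0.59 with the GC content of exons, against -0.46 to -0.34 in the other 4 islet libraries. In the sorted cells, acinar markers took up 1.74% of the signal in macrophage replicate 2 and 0.500% in endothelial replicate 2, against 0.00124 to 0.122% in the other 4 sorted libraries. Pericyte and smooth muscle markers reached 0.293% in endothelial replicate 3, against 0.0767 and 0.0821% in the other endothelial libraries. Without any single sorted library, the counts of the 10 genes called stayed at 8 between macrophages and endothelial cells and at 7 between macrophages and Dox islets, and went from 7 to 4 or 5 between endothelial cells and Dox islets. The part of the acinar and pericyte signal in the differences between sorted cells was not tested.

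Sequences before the start sites of the 4 receptor genes that rose together in Dox islets are shown here, because many endothelial genes are known to carry ETS factor sites close to their start. Each is the 250 bases before the RefSeq start, written 5′ to 3′ along the gene, from build GRCm38.p6, with every GGAA or its reverse complement TTCC, the core of ETS sites, in capitals.
Flt1, chr5:147726012-147726261, minus strand: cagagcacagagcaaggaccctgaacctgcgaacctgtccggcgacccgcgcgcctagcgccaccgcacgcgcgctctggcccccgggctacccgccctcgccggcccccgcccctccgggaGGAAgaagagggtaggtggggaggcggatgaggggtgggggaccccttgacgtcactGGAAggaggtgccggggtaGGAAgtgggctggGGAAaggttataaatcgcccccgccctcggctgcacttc
Kdr, chr5:75978456-75978705, minus strand: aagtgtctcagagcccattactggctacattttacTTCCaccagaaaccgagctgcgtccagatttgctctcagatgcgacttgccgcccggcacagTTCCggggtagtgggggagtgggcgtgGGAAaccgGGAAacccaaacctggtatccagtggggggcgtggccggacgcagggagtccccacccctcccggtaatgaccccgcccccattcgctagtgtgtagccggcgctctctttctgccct
Flt4, chr11:49609429-49609678, plus strand: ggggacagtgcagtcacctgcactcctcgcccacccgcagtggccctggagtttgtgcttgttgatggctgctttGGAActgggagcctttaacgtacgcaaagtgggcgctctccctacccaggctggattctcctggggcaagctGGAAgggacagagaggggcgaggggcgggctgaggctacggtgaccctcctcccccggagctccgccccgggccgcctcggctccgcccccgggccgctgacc
Nrp2, chr1:62703067-62703316, plus strand: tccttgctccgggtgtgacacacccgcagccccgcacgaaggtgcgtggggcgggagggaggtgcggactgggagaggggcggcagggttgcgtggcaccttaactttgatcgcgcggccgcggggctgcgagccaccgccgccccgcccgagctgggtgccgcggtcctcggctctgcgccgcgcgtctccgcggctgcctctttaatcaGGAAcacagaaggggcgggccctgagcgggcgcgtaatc
Flt1 and Kdr held 4 such matches each, Flt4 held 2 and Nrp2 held 1. Over the 32851 RefSeq windows of this length, 93.4% held at least 1 match and the median was 3, so this short motif is common and its count here is a description only. The HIF core ACGTG or CACGT occurred in none of these 4 windows and in 16.6% of all windows. Windows for all 10 genes were matched by symbol, Figf under its RefSeq name Vegfd.

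Among the ligands, Vegfa is the gene of the factor that the transgene supplies. Its locus, ENSMUSG00000023951, lies on the minus strand of chromosome 17 from 46153942 to 46169326 (all gene coordinates are of mm9). Its signal was 3268, 4514 and 4118 in the No Dox islet libraries and 1579.6, 2085 and 2417 in the Dox islet libraries. The groups did not overlap, and every Dox library lay below every No Dox library. The log2 difference was -0.98 (SE 0.29, limma's adjusted p = 0.0695), a 1.97-fold lower level that missed the threshold of 0.05. Vegfa passed when values were rescaled by median ratios (log2 difference -1.10, adjusted p = 0.0423), after quantile normalization (-1.13, adjusted p = 0.0475), when the GC trend of each library was removed (-1.12, adjusted p = 0.0254) and when the 4 groups were fitted together (adjusted p = 0.0292). Without the 2 libraries that stood apart by GC content the difference was -0.71 (adjusted p = 0.203). Over all 16 alternatives the difference ran from -1.13 to -0.71, so the direction held while the call did not. The labels do not say which part of the transgene transcript would be counted as Vegfa, so this value does not measure transgene induction.

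Genes of beta cells, the islet source of VEGF-A, were also lower in the Dox islets. The 12 beta cell markers took up 1.91 to 3.09% of all signal without Dox and 0.862 to 0.921% with Dox, 7 of 12 fell, 0 rose, and their median log2 difference was -1.60. Without Dox replicate 2 or 3 limma's adjusted test called 0 of them, and 9 had an unadjusted p under 0.05 each time. Without the 2 libraries that stood apart by GC content 4 were called. Markers of other islet endocrine cells were lower as well in their summed share, at 1.14 to 2.08% without Dox and 0.673 to 0.803% with Dox, and 4 of 5 tested lay below 0 (median log2 difference -0.89), with 0 called by limma and 2 at an unadjusted p under 0.05. For comparison, of the 10214 genes tested in islets 8.48% were called, 6.22% higher and 2.26% lower, and 10.6% had Dox libraries all below the No Dox libraries. In bulk samples fewer cells of a type and less RNA per cell cannot be told apart. Set against the mean log2 level of these 12 markers within each library, Vegfa stood at -2.40, -2.00 and -2.56 without Dox and at -1.72, -1.78 and -1.48 with Dox. Relative to the mean of these beta cell genes, Vegfa was thus higher in each of the 3 Dox libraries than in any No Dox library, by 0.65 on the log2 scale. The two-sided exact permutation test gave p = 0.1, the smallest that 3 against 3 allows, and 0.3 adjusted over the 6 such relations computed. The 12 markers differed among themselves, with log2 differences from -1.05 (Iapp) to -2.40 (G6pc2), against -0.98 for Vegfa. Iapp, Ins2 (-1.11) and Ins1 (-1.22) were close to Vegfa, so the 0.65 refers to the mean of the markers and not to each.

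In the sorted cells Vegfa was low but ordered. Macrophages held 210.4, 216 and 220.5 and endothelial cells 41.9, 68.8 and 68.7, and the groups did not overlap. Macrophages were 3.65-fold above endothelial cells (log2 difference 1.87, SE 0.30, adjusted p = 0.000772), 9.22-fold below Dox islets (-3.21, SE 0.25, adjusted p = 1.03e-05), and endothelial cells were 33.7-fold below Dox islets (-5.07, SE 0.30, adjusted p = 1.62e-05). The macrophage mean was 10.6% of that in Dox islets, whereas the beta cell markers in macrophages stood at a median of 1.44% of their Dox islet level (range 0.590 to 4.93%). In endothelial cells Vegfa stood at 2.95% and the beta cell markers at a median of 0.299% (range 0.0792 to 1.93%). In both fractions Vegfa thus lay above the range of all 12 beta cell markers. Some markers of other cells stood nearer their Dox islet level than Vegfa did. In macrophages Ppy differed from Dox islets by a log2 of -2.43 and Hhex by 0.43, while Sst (-3.64), Ttr (-5.02) and Gcg (-5.39) were further below. In endothelial cells only Hhex (0.42) of these stood nearer. Hhex had means of 1557 in macrophages and 1497 in endothelial cells, against 1258 in Dox islets and 744 in No Dox islets. It is thus no measure of islet RNA in the sorted cells. Tested acinar markers had medians of -2.95 in macrophages and -4.74 in endothelial cells. Carry-over of islet or acinar RNA was not tested.

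Vegfb, whose product binds FLT1 and neuropilin 1 but not KDR, is ENSMUSG00000024962 on chromosome 19 from 7056963 to 7062141. Macrophages held 275, 263 and 187, No Dox islets 168, 245 and 251, Dox islets 165, 146 and 135, and endothelial cells 69.9, 50.4 and 62.5. Endothelial cells lay below every other group, and the neighbours macrophages and No Dox islets overlapped. The gene was 3.90-fold higher in macrophages than in endothelial cells (log2 difference 1.96, SE 0.29, adjusted p = 0.000483). Against Dox islets macrophages stood at 0.68 (SE 0.36, adjusted p = 0.135), with no overlap of the groups, passed after quantile normalization (1.61, adjusted p = 0.00725) and without a variance trend (adjusted p = 0.0469), and stood at 0.02 with GC trends removed (adjusted p = 0.968). In islets Vegfb did not reach the filter on low values. Its Dox libraries all lay below its No Dox libraries, by 0.55 on the log2 scale, and the adjusted p was 0.534 with a lower filter chosen after the data were seen.

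Vegfc, the lymphangiogenic ligand of FLT4, was the ligand of the endothelial fraction. It is ENSMUSG00000031520 on chromosome 8 from 55162886 to 55271808. Endothelial cells held 766, 956 and 909, Dox islets 366, 555 and 451, No Dox islets 625, 254 and 446, and macrophages 16.3, 37.5 and 50.6. Endothelial cells were 1.94-fold above Dox islets (log2 difference 0.95, SE 0.23, adjusted p = 0.0145) and 26.9-fold above macrophages (-4.75 for macrophages against endothelial cells, SE 0.41, adjusted p = 1.87e-05). The call against Dox islets was lost when the 4 groups were fitted together (adjusted p = 0.137) and without endothelial replicate 2 (0.0783) or 3 (0.0591). Macrophages were also below Dox islets (-3.80, SE 0.52, adjusted p = 0.000237). The islet groups overlapped, and their difference of 0.12 (SE 0.41, adjusted p = 0.909) turned to -0.03 without Dox replicate 2 and to -0.23 without No Dox replicate 2.

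Figf passed the filter in islets alone and Pgf in no comparison. Figf, ENSMUSG00000031380 on chromosome X from 160811310 to 160840582, encodes VEGF-D. It read 320, 156 and 119 in No Dox islets, 134, 302 and 267 in Dox islets, 132, 111 and 143 in endothelial cells and 26.4, 15.2 and 36.5 in macrophages. The 3 groups above macrophages overlapped one another as neighbours, and macrophages lay below them. In islets Figf stood at 0.29 (SE 0.53, adjusted p = 0.825), and at 0.54 (adjusted p = 0.658) without the 2 libraries that stood apart by GC content. With the lower filter it was below endothelial cells in macrophages (log2 difference -2.34, adjusted p = 0.00146) and below Dox islets (-3.12, adjusted p = 0.00117). Pgf, ENSMUSG00000004791 on chromosome 12 from 86507589 to 86518246, encodes placental growth factor. It read 60.2, 188 and 114 in No Dox islets, 239, 98.9 and 87.7 in Dox islets, 2.45, 46.8 and 6.05 in macrophages and 4.10, 4.52 and 18.8 in endothelial cells. Both sorted fractions thus lay below both islet groups and overlapped each other, and the 46.8 is from the macrophage library with the highest acinar share. With the lower filter, macrophages and endothelial cells were below Dox islets by log2 differences of -3.61 (adjusted p = 0.0104) and -3.97 (adjusted p = 0.00189). Of the sorted libraries only those at 46.8 and 18.8 reached that filter of 15.6, which was chosen after the data were seen. For Pgf entry into the test and a call are thus not independent.

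Because the signal is not divided by gene length, ligand genes were compared with each other per kb of annotated exon. On that scale Vegfa made up 63.3% ± 6.87 (SD, n = 3) of the summed ligand signal in No Dox islets and 47.3% ± 5.76 (SD, n = 3) in Dox islets. The ranges, 55.7 to 69.1% and 42.3 to 53.6%, did not overlap. Vegfb made up 62.1% ± 8.29 (SD, n = 3) in macrophages and Vegfc 80.5% ± 2.97 (SD, n = 3) in endothelial cells. The ligand that led the sum was thus a different gene in islets, macrophages and endothelial cells. The sum itself was 1453 ± 79.6 per kb in No Dox islets, 993 ± 106 in Dox islets, 242 ± 28.1 in macrophages and 574 ± 51.2 for the endothelial fraction (SD, n = 3).

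**Figure D2:**
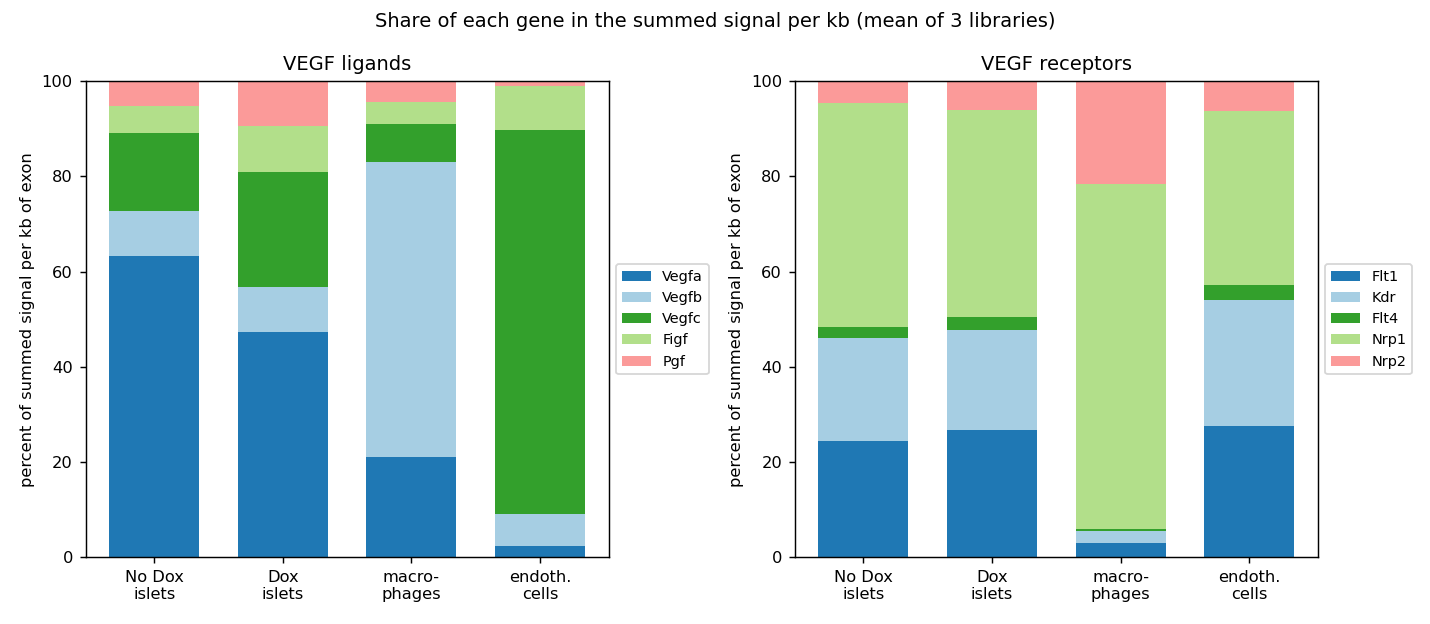
Share of each gene (percent of the summed signal per kb of exon, mean of 3 libraries) among the 5 ligand genes (left) and the 5 receptor genes (right) in the 4 groups. Vegfa leads the ligand bar in both islet groups, Vegfb in macrophages (62.1%) and Vegfc in endothelial cells (80.5%); Nrp1 leads the receptor bar in all 4.

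The receptor tyrosine kinase genes rose in Dox islets. Flt1, ENSMUSG00000029648 on chromosome 5 from 148373180 to 148537587, read 16127, 17306 and 16197 in No Dox islets and 34727, 55235 and 43138 in Dox islets. Its lowest Dox library was above its highest No Dox library, a 2.64-fold difference (log2 1.40, SE 0.34, adjusted p = 0.0360). The gene-level value does not separate the membrane-bound from the soluble form. Kdr, ENSMUSG00000062960 on the same chromosome from 76328852 to 76374483, read 9770, 10205 and 7441 without Dox and 20870, 24264 and 18706 with Dox. Here too the groups were apart, by 2.34-fold (log2 1.22, SE 0.30, adjusted p = 0.0393). Flt4, ENSMUSG00000020357 on chromosome 11 from 49422765 to 49466241, rose from 973, 1259.8 and 1093 to 2950.2, 3333 and 3108, by 2.83-fold (log2 1.50, SE 0.26, adjusted p = 0.0145).

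The coreceptor genes lay higher as well. Nrp2, ENSMUSG00000025969 on chromosome 1 from 62749859 to 62865269, rose from 2908, 2807 and 2103 to 8253, 9105 and 7312, by 3.17-fold (log2 1.67, SE 0.28, adjusted p = 0.0120), the largest fold of the 10 genes in islets. Nrp1, ENSMUSG00000025810 on chromosome 8 from 130882973 to 131029362, read 19608, 12810 and 16638 without Dox and 28468, 40538 and 40203 with Dox. A microRNA gene that is no row of the table, Mir1903, shares 80 of its exon bases. The groups did not overlap, and the log2 difference of 1.16 (SE 0.34, adjusted p = 0.0696) missed the threshold. In all, 8 of the 10 genes passed the filter on low values in islets, 4 of these were called higher and 0 lower, against 6.22% higher and 2.26% lower of all genes tested. All 5 receptor genes had groups that did not overlap, with Dox above, as did 17.3% of all genes tested.

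The islet calls rested on few libraries. Without Dox replicate 2, or without Dox replicate 3, 0 of the 10 genes passed limma's adjusted test, while 6 had an unadjusted p under 0.05 and the log2 differences of the 5 receptor genes ran from 1.07 to 1.75 (adjusted p from 0.0535 to 0.246). Flt4 and Nrp2 still passed without any single one of the other 4 libraries, and without both libraries that stood apart by GC content (adjusted p = 0.0392 for each). Without those 2 libraries Flt1 passed as well (0.0376), while Kdr stood at 0.0563 and Nrp1 at 0.0531. With no filter on low values only Flt4 passed (0.0402).

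**Figure D3:**
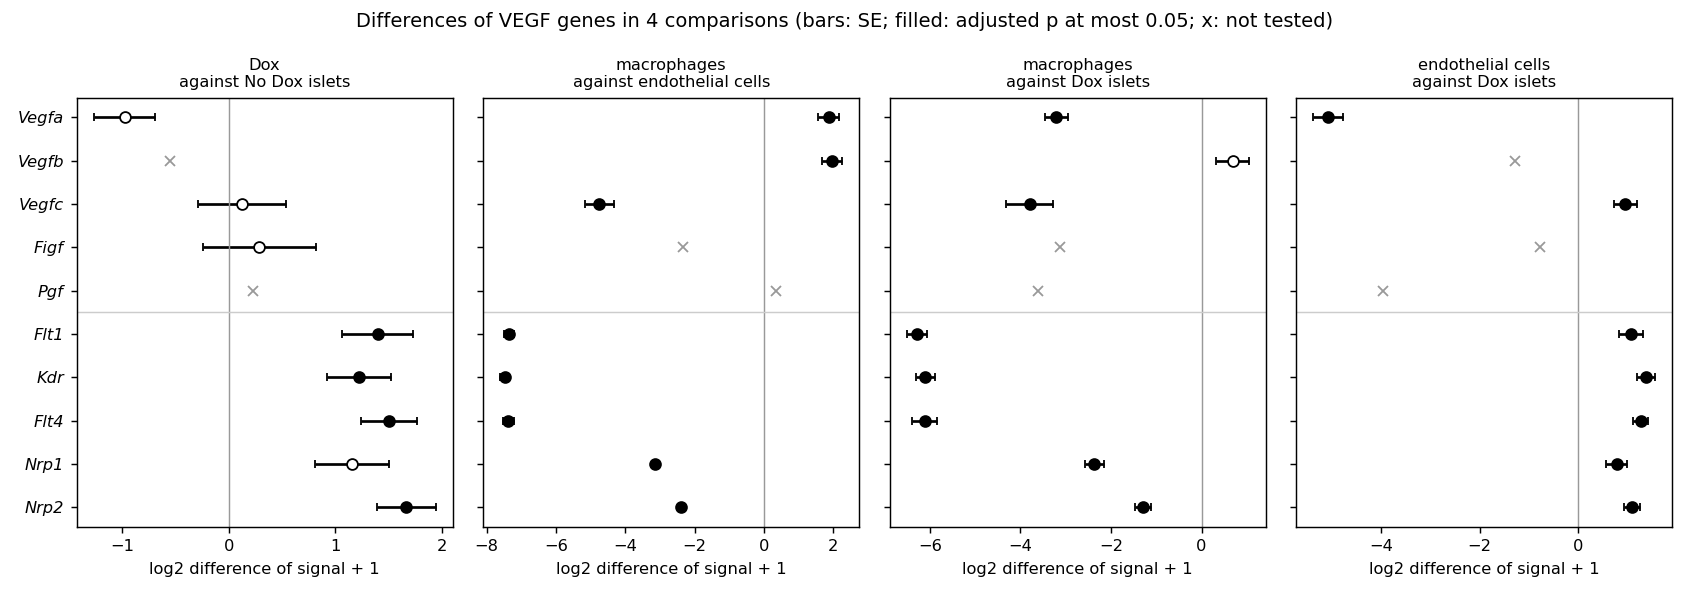
Log2 difference of signal + 1 (horizontal axis) for the 10 genes in 4 comparisons, with standard errors as bars; filled circles passed an adjusted p of 0.05 in limma, open circles did not, and crosses mark genes below the filter. The 5 receptor genes lie right of 0 in Dox islets (log2 1.16 to 1.67) and in endothelial cells against Dox islets (0.78 to 1.38), and left of 0 in macrophages.

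Endothelial markers moved with the receptor genes in islets. Of 15 tested markers outside the VEGF genes 8 rose and 0 fell, all 15 lay above 0, and their median log2 difference was 1.55, against 0.11 for all genes tested. Their summed share went from 0.171 to 0.209% of the signal without Dox to 0.450 to 0.584% with Dox, and none of the 16 was at the floor in either group. Without Dox replicate 2 or 3 limma called 0 and 2 of these markers (unadjusted p under 0.05 for 11 and 12), and without No Dox replicate 1 or 3 it called 5 and 4. Set against the mean log2 level of all 16 markers within each library, Kdr stood at 3.10, 3.14 and 3.09 without Dox and at 2.36, 2.75 and 2.64 with Dox. Relative to endothelial markers Kdr was thus lower in all 3 Dox libraries, by 0.53 on the log2 scale (two-sided exact permutation p = 0.1, the smallest possible, and 0.3 adjusted over 6 relations). For Flt1, Flt4, Nrp1 and Nrp2 the same quantity differed by -0.35, -0.25, -0.59 and -0.09 with overlapping groups (exact permutation p from 0.3 to 0.6). The mean of the 16 markers includes Cldn5, which did not reach the filter and had means of 4.52 without Dox and 78.7 with Dox. Its change near the floor enlarges the shift of that mean, and a mean without Cldn5 was not computed. Without the 2 libraries that stood apart by GC content 9 endothelial markers were called. Markers of other cells were higher too: 7 of 9 tested macrophage markers rose, their share going from 0.0253 to 0.0465% to 0.0757 to 0.122%, and 4 of 9 pericyte and smooth muscle markers, from 0.2998 to 0.617% to 1.09 to 1.76%. Of 6 fibroblast markers 2 rose and 5 lay above 0 (median log2 difference 1.20), and their share went from 0.0905 to 0.177% to 0.243 to 0.448%. Without the 2 libraries that stood apart by GC content, 3 macrophage, 4 pericyte and smooth muscle and 2 fibroblast markers were called. Without Dox replicate 2 limma called 0 fibroblast markers (unadjusted p under 0.05 for 2). In that fit the macrophage and pericyte calls were 0 and 1, without Dox replicate 3 they were 0 and 2, and without No Dox replicate 1 or 3 they were 3 and 2; the 9 macrophage markers each had an unadjusted p under 0.05 in these fits. All 9 tested acinar markers lay above 0, of which limma called 0 (an unadjusted p under 0.05 was found for 5) and 4 without No Dox replicate 2. The part of these markers' cells in the receptor differences was not tested.

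Endothelial cells carried the receptors at high levels. Flt1 read 97215, 99726 and 79015, Kdr 54788, 57911 and 52372, and Flt4 7783, 7879 and 6938. Nrp1 read 62538, 65794 and 57320 and Nrp2 17674, 18025 and 16539. In all 5 genes every endothelial library lay above every Dox islet library. The log2 differences from Dox islets were 1.38 for Kdr (SE 0.18, adjusted p = 0.000763), 1.27 for Flt4 (SE 0.15, adjusted p = 0.000385) and 1.09 for Nrp2 (SE 0.16, adjusted p = 0.00126). They were 1.07 for Flt1 (SE 0.24, adjusted p = 0.0109) and 0.78 for Nrp1 (SE 0.21, adjusted p = 0.0260). With Vegfc, 6 of the 7 genes that passed the filter were called higher and 1, Vegfa, lower, where 31.5% of all 10187 genes tested were called, 14.0% higher and 17.5% lower. All 3 endothelial libraries lay above the Dox islet libraries in 25.6% of all genes tested and below them in 22.8%. Vegfa reached the filter on low values only in Dox islets. With no filter Flt1 and Nrp1 no longer passed (adjusted p = 0.182 and 0.197). Without endothelial replicate 2 the count of calls fell to 4, with Flt1, Nrp1 and Vegfc lost.

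Relative to the endothelial fraction, the receptor genes in islets lay within the range of the endothelial markers and mostly above their median. Dox islets held 38.7% of the endothelial level for Kdr, 41.6% for Flt4, 47.2% for Nrp2, 48.2% for Flt1 and 58.8% for Nrp1. The 16 markers had a median of 39.0%, from 28.4 to 152%. The upper end is Erg alone, and the next marker was Sox17 at 51.3%. In No Dox islets the receptors stood at 14.7% (Flt4), 14.97% (Nrp2), 16.6% (Kdr), 18.0% (Flt1) and 26.4% (Nrp1), and the markers at a median of 12.6%, from 2.57 to 35.4%. Nrp1 was above 15 of the 16 markers in both islet groups, the highest of the 5 receptor genes. In Dox islets Flt1 and Nrp2 were above 14 of the 16, Flt4 above 11 and Kdr above 8. In No Dox islets Flt1 and Kdr were above 12, and Flt4 and Nrp2 above 11.

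**Figure D4:**
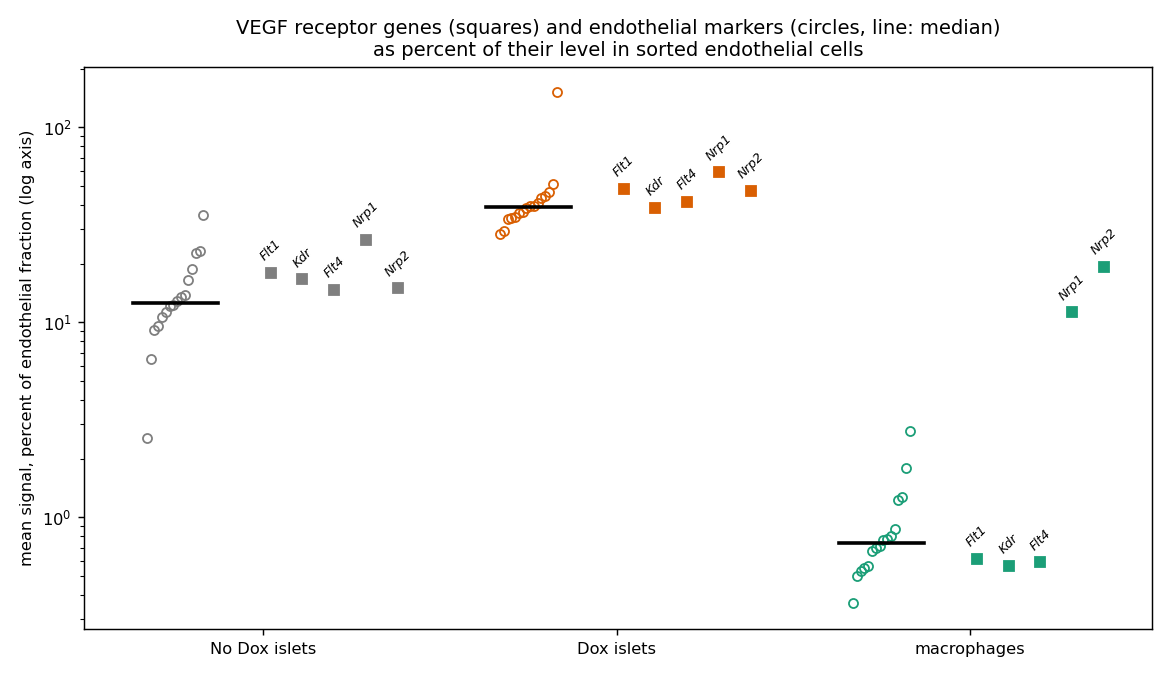
Mean signal of the 5 receptor genes (squares) and 16 endothelial markers (open circles, line at their median) in No Dox islets, Dox islets and macrophages, as percent of the mean in sorted endothelial cells (log axis). In macrophages Flt1, Kdr and Flt4 (0.564 to 0.611%) lie among the markers, while Nrp1 (11.3%) and Nrp2 (19.2%) lie above all 16.

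Macrophages parted the receptors into 2 sets. Flt1 read 660.5, 501 and 524, Kdr 373, 288 and 270.2, and Flt4 49.8, 41.0 and 42.3 in the macrophage libraries. Their means were 0.611, 0.564 and 0.589% of those in endothelial cells, each above 5 of the 16 endothelial markers, whose median in macrophages was 0.742% (range 0.363 to 2.79%). The log2 differences between macrophages and endothelial cells were -7.36, -7.48 and -7.38 (adjusted p = 1.94e-08, 1.94e-08 and 2.53e-08). Nrp1 read 7104, 7136 and 6647 and Nrp2 3558, 3041 and 3453. These are 11.3 and 19.2% of the endothelial means, above all 16 markers, with log2 differences of -3.15 (SE 0.09, adjusted p = 6.17e-08) and -2.38 (SE 0.09, adjusted p = 2.33e-07). Of the 8 genes that passed the filter here, 6 were lower in macrophages and Vegfa and Vegfb higher, where 65.4% of all 10145 genes tested were called, 36.0% lower and 29.4% higher. The groups of those 8 genes did not overlap, as was so for 39.9% of all genes tested with macrophages below and 31.6% with macrophages above. Vegfa and Vegfb reached the filter on low values only in macrophages, and Vegfc and Flt4 only in endothelial cells. For these genes entry into the test and a call are not independent.

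Against Dox islets, 7 of 8 tested genes were lower in macrophages and 0 higher, where 56.0% of 10687 genes tested were called, 31.3% lower and 24.7% higher. Macrophages lay wholly below Dox islets in those 7 genes and in 35.6% of all genes tested, and wholly above in Vegfb and in 28.1%. Vegfc and Flt4 reached the filter on low values only in Dox islets, and Vegfb only in macrophages. Flt1, Kdr and Flt4 differed by -6.28, -6.10 and -6.11 on the log2 scale (adjusted p = 8.54e-07, 8.54e-07 and 9.21e-07), and Nrp1 by -2.37 (adjusted p = 2.29e-05). For Nrp2 the difference was -1.29 (SE 0.18, adjusted p = 0.000289). Nrp2 was the receptor gene with another order of groups: each of its macrophage libraries lay above each No Dox islet library, with means of 3351 ± 274 and 2606 ± 439 (SD, n = 3). For Nrp1 macrophages were instead the lowest group, at 6962 ± 274 against 16352 ± 3408 in No Dox islets (SD, n = 3). These comparisons share libraries with each other, so their values are given side by side and not as separate support.

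Per kb of exon, Nrp1 led the receptors in every group. It stood at 10476 ± 724 in endothelial cells, 6163 ± 1164 in Dox islets, 2768 ± 577 in No Dox islets and 1179 ± 46.3 in macrophages (SD, n = 3). In endothelial cells Flt1 and Kdr followed at 7941 ± 976 and 7560.3 ± 382 per kb, a ratio of 1.05 ± 0.0884 (SD, n = 3), and Flt4 was lowest at 915 ± 62.9 per kb. This order depends on the length used, that of all annotated exons of a gene merged (11583 bases for Flt1, 5907 for Nrp1). Undivided, the mean of Flt1 was above that of Nrp1 in endothelial cells (91985 against 61884) and in Dox islets, and below it in macrophages. In No Dox islets the means were nearly equal (16543 against 16352), and Flt1 was above Nrp1 only in replicate 2 (17306 against 12810). The ratio of Flt1 to Kdr per kb was 1.16 ± 0.183 in No Dox islets, 1.31 ± 0.228 in Dox islets and 1.14 ± 0.0685 in macrophages (SD, n = 3), and its ranges overlapped between No Dox islets, Dox islets and endothelial cells. Of the summed receptor signal per kb, Nrp1 and Nrp2 made up 72.4% ± 2.03 and 21.7% ± 1.68 in macrophages, against 36.5% ± 0.388 and 6.39% ± 0.208 in endothelial cells (SD, n = 3). Nrp1 exceeded Nrp2 per kb by 10.3-fold ± 2.74 in No Dox islets, 7.19-fold ± 1.65 in Dox islets, 5.72-fold ± 0.149 in endothelial cells and 3.36-fold ± 0.364 in macrophages (SD, n = 3).

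The genes whose levels over the 12 libraries were most like each member were named by the highest Pearson correlations of log2 signal, among 4416 or 4417 other genes with a mean of at least 1259. The points share their libraries and fall into 4 groups, so the correlations are a description and have no p-values. For Vegfa these were Scg2 (r = 0.997), which encodes the granule protein secretogranin II, Glp1r (0.996), the receptor gene of the incretin GLP-1, and 5330417C22Rik (0.996). For Flt1 they were Flt4 (0.998), Kdr (0.998) and Clec14a (0.997). Kdr was most like Flt4 (0.998), Flt1 (0.998) and Fat4 (0.998), and Flt4 most like Cd300lg (0.998), Flt1 and Kdr. By Spearman correlation the lists differ: all 3 genes were shared for none of the members, 2 for 1 member, 1 for 5 and 0 for 4, with up to 9 genes level with or above the third place because ranks over 12 libraries tie often. Nrp1 was most like Calcrl (0.995), the receptor gene of adrenomedullin, Rasgrp3 (0.994) and Sntb2 (0.993), and Nrp2 most like Spata13 (0.989), Tram2 (0.986) and Sgk1 (0.985). Vegfc was closest to Samd12 (0.989), Shroom2 (0.989) and Phtf1 (0.987), and Vegfb to Lgals3bp (0.959), Il6ra (0.956) and Adrbk2 (0.946). Figf was closest to Dmd (0.961), the dystrophin gene, Pkia (0.959) and Tead1 (0.958), and Pgf to Gjd2 (0.895), Atp2a3 (0.889) and Dcn (0.887), the decorin gene.

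Genes that work with the receptors were listed in 4 sets. Of 18 tested receptor partners and modulators in islets, 5 rose and 0 fell, with a median log2 difference of 1.02, against 0.11 for all genes tested, of which 6.22% rose and 2.26% fell. The largest were Itgb3, the integrin beta 3 gene whose product cooperates with KDR (from 659.5 ± 136 to 3230.4 ± 577, SD, n = 3; log2 2.30, adjusted p = 0.0107), and Plxnd1, a semaphorin receptor (2.24, adjusted p = 0.0306). Cdh5 (log2 1.85), among the 5 that rose, is also counted among the endothelial markers. Of 27 tested genes of VEGF signal transduction, 1 rose and 1 fell, a share near that of all genes tested (8.48% called), with a median of 0.48: Fyn, a Src family kinase, rose (log2 1.74, adjusted p = 0.0112) and Prkca, a protein kinase C, fell (-1.30, adjusted p = 0.0433). Of 19 tested genes known to be induced by VEGF-A, 6 rose and 0 fell, with a median of 1.57, and Kcne3 (4.39, adjusted p = 0.00709) and Nid2 (2.57, adjusted p = 0.00981) led. Kcne3 had means of 65.2 ± 12.4 without Dox and 1425 ± 489 with Dox (SD, n = 3). It reached the filter on low values only in Dox islets, so its entry and its call are not independent. The median of the tested endothelial markers was 1.55. Both leading genes were far lower in macrophages than in endothelial cells (log2 -5.43 and -6.50). Of the 19, 16 lay above 0, and Egr1 (-0.38), Nr4a2 (-0.23) and F3 (-0.03) below. The part of endothelial content in these differences was not tested. Of 7 tested genes of the hypoxia control of Vegfa, 1 rose, Hif1a (1.27, adjusted p = 0.0492), and 0 fell, with a median of 0.26. Without Dox replicate 2, limma's adjusted test called 0, 0, 1 and 0 genes of these sets, and 7, 5, 11 and 3 had an unadjusted p under 0.05. Without the 2 libraries that stood apart by GC content it called 5, 1, 5 and 1. Without Dox replicate 3 it called 2, 1, 2 and 0, and without No Dox replicate 1 it called 3 induced genes, 1 transduction gene and 0 hypoxia genes. The Hif1a call was also lost without No Dox replicate 2 or 3, and the count of transduction calls was 1 without Dox replicate 1 or No Dox replicate 2.

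Between endothelial cells and Dox islets, where 14.0% of all genes tested were called higher and 17.5% lower, partners, transduction genes and induced genes were called higher in larger shares. Of 17 tested partners 9 were higher and 4 lower, led by the perlecan gene Hspg2 (log2 2.30, adjusted p = 0.0110) and Sema3f (1.87, adjusted p = 0.0305), with the syndecan gene Sdc2 (-4.48, adjusted p = 0.000240) and the phosphatase gene Ptprj (-2.73, adjusted p = 0.000190) lowest. Of 27 transduction genes 9 were higher and 3 lower, with Hspb1, a small heat shock protein gene (1.82, adjusted p = 0.00723) and Nos3, the endothelial nitric oxide synthase gene (1.69, adjusted p = 0.00216) at one end and Prkcb (-5.79, adjusted p = 2.27e-05) and Prkca (-2.01, adjusted p = 0.000140) at the other. Prkcb had an endothelial mean of 87.2 and reached the filter on low values only in Dox islets. Of 18 induced genes 6 were higher and 2 lower, led by Nr4a1 (2.16, adjusted p = 0.0189) and the Notch ligand gene Dll4 (1.82, adjusted p = 0.0102), with Vcam1 (-3.17, adjusted p = 0.000406) and Egr2 (-2.14, adjusted p = 0.000305) lower. The leading partners and induced genes were widely scattered in Dox islets. Hspg2 read 16301.5 ± 14277, Sema3f 1542 ± 1407, Nr4a1 1421 ± 1317 and Dll4 2093 ± 1380 there (SD, n = 3). Of 7 hypoxia genes 0 passed limma's adjusted test and 1 had an unadjusted p under 0.05; 4 were called without Dox replicate 1. Medians over these 4 sets were 0.63, 0.58, 0.90 and 0.22, against 0.08 for all genes tested. The partner calls fell from 13 to 6 without endothelial replicate 1 or 2 or Dox replicate 3 and to 8 without endothelial replicate 3. Transduction calls went from 12 to 7 without endothelial replicate 1 and to 21 without Dox replicate 1, and induced gene calls from 8 to 5 without endothelial replicate 1 or 2 and to 4 without Dox replicate 3.

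Between macrophages and endothelial cells 65.4% of all genes tested were called (29.4% higher in macrophages, 36.0% lower), and calls in the pathway sets are read against that. Of 15 tested partners 5 were higher in macrophages and 9 lower, of 27 transduction genes 8 and 15, of 19 induced genes 10 and 8, and of 7 hypoxia genes 1 and 2, the last a smaller share than that of all genes. The partner genes at the ends were Ptprj (log2 5.59, adjusted p = 2.80e-07) and Ptpn1 (1.39, adjusted p = 7.50e-06) on the macrophage side and Sema3g (-8.46, adjusted p = 1.31e-05) and Ptprb, the phosphatase VE-PTP (-8.03, adjusted p = 4.55e-08), on the endothelial side. Among transduction genes, the protein kinase C gene Prkcb stood at 18806 ± 2333 against 87.2 ± 28.1 (SD, n = 3, macrophages first; log2 7.79, adjusted p = 9.29e-08) and Nos3 at 10.2 ± 8.05 against 1341 ± 164 (-7.40, adjusted p = 5.30e-05). Of the induced genes, Ptgs2, the cyclooxygenase 2 gene (9.90, adjusted p = 6.78e-08), and Vcam1 (6.27, adjusted p = 6.27e-08) were higher in macrophages, and Esm1 (-7.39, adjusted p = 3.17e-08) and Dll4 (-7.05, adjusted p = 1.27e-07) in endothelial cells. Sema3g, Nos3 and Dll4 had macrophage means below the filter on low values (4.48, 10.2 and 49.0). Prkcb and Ptgs2 had endothelial means below it (87.2 and 9.69). For these genes entry into the test and a call are not independent. Egln2, a prolyl hydroxylase of HIF, was higher in macrophages (1.06, adjusted p = 0.00555), and Epas1, which encodes HIF-2 alpha, was lower (-6.00, adjusted p = 1.13e-07). Against Dox islets, macrophages were higher in 4, 8, 11 and 1 and lower in 11, 11, 8 and 2 of the 17, 26, 19 and 7 tested genes of these sets, where 24.7% of all genes tested were higher and 31.3% lower. The hypoxia calls went from 3 to 5 without macrophage replicate 3 in the first of these comparisons and from 3 to 5 without Dox replicate 1 in the second.

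Markers of lymphatic endothelium, the vessel type for which FLT4 is best known, did not pass the test for a rise. Of 5 such genes 2 passed the filter in islets, 0 passed limma's adjusted test there and 1 had an unadjusted p under 0.05; the 2 are named here after their values were seen. Lyve1 stood at 0.36 (adjusted p = 0.689) in Dox against No Dox islets. Prox1, which islet endocrine cells also express, stood at -0.94 (adjusted p = 0.105). Both were lower in the endothelial fraction than in Dox islets, by log2 differences of -2.14 (adjusted p = 0.00229) and -1.84 (adjusted p = 0.000680). The 5 genes together held 0.00390 to 0.00479% of the signal in endothelial cells and 0.0129 to 0.0198% in Dox islets.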

How the data were processed

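The authors deposited one table of normalized expression signal per gene for 12 libraries, per the file headers. Its normalization, its counting and any use of strand are not stated in the labels; the submitters' processing notes name TopHat2 2.0 and mm9. Low values of each library lie on whole multiples of 1 step, the same for all genes (100% of values under 3, within 0.1 step), so the signal is not divided by gene length. Whole reads were not recovered, so depth is unknown and no counting interval is given.

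Symbols stored as dates (25) were restored from gene IDs, and of 76 symbols with several entries the one with the highest mean was kept. Exon lengths and GC content are from GENCODE M1 (22660 IDs found, 22309 with the table's own coordinates). limma 3.58.1 (R 4.3.3) was run on log2(signal + 1) with a variance trend, on the 6 libraries of a comparison, with Benjamini-Hochberg adjustment over all genes tested (threshold 0.05), and fold changes are on that scale. A gene needed a signal of 183, the 40th percentile of values above the floor, in 3 of 6 libraries, which left 2 or 3 of the 10 genes untested; a filter at 15.6 and a fit without 2 islet libraries were added after the data were seen. Other alternatives were another pseudocount, no filter, 3 rescalings, a fit of 4 groups, no trend, a replicate block and each library left out. The script was tested on simulated data with planted log2 changes of 1 and 2. In Dox against No Dox islets it called 0% and 40% of them, so a missed call there says little. It called 69.6% and 93.8% between macrophages and endothelial cells, 22.2% and 69.4% between macrophages and Dox islets, and 37.8% and 81.25% between endothelial cells and Dox islets. The members, lists and tests were chosen with earlier results of these data known. Named genes are the members, the 3 most like each, and up to 2 rises and 2 falls of each pathway list.

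Same-numbered macrophage and endothelial libraries deviated together (r of 0.27, 0.51 and 0.45, each over 0.1), a hint of pairing that the labels do not state. Sequences are from RefSeq, GRCm38.p6.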

Additional observations from a re-analysis of the deposited data

How the results depend on the processing

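Of the 10 genes in islets, 4 passed; 1 did so with no filter on low values, 2 with a replicate block, and 0 to 3 when single libraries were left out (0 without Dox replicate 2 or 3). With the block Flt1 and Kdr were lost (adjusted p = 0.115 for Flt1 and 0.125 for Kdr); numbers did not pair the islet libraries, since deviations of same-numbered libraries correlated at -0.21, -0.66 and 0.19. The block changed 0 calls of the 10 genes in the other 3 comparisons. In islets the Vegfc difference turned to -0.03 without Dox replicate 2, -0.23 without No Dox replicate 2 and -0.076 without both libraries that stood apart by GC content (-0.23 to 0.42 with single libraries left out), and the Figf difference to -0.014 without No Dox replicate 3 (-0.014 to 0.70); neither gene was called. Between endothelial cells and Dox islets 4 to 7 genes passed with single libraries left out, against 7. Between macrophages and endothelial cells 8 passed under each of these, and between macrophages and Dox islets 7. The cause of these changes was not tested. In islets, 99 of 132 gene values under an alternative kept direction and side of the threshold; in the others 97 of 111, 119 of 124 and 121 of 123 did.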
